A study of Mus musculus with 21 samples.

Results

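Macrophages display surface proteins that strengthen or restrain the T cells they meet, and 9 genes for such proteins are described here. They are Cd80, Cd86 and Icosl of the B7 costimulator family, Tnfsf4 and Tnfsf9 of the TNF ligand family, the receptor gene Cd40, the maturation marker Cd83, and the checkpoint ligand genes Cd274 and Pdcd1lg2. The rows were found in the deposited raw table by matching Ensembl identifiers, without their version, to these symbols, and they are 9 of its 23250 genes. Each symbol matched 1 row, and all 9 passed the low-count filter that 13468 genes passed.

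The cells were macrophages grown from mouse bone marrow for 7 days with supernatant of a GM-CSF-producing line, on the background labelled C57BL/6J, and the series' design text says that they lack the mannose receptor. One group was harvested untreated at 0 h. The others received FcMR, in which the extracellular part of the mannose receptor is joined to the Fc of human IgG1, or an isotype control, for 4, 12 or 24 h. Each of the 7 groups holds 3 libraries of 75 bp single-end reads. The labels do not say what protein the isotype control is, how many mice gave marrow, or whether marrow was pooled, and there is no untreated group at 4, 12 or 24 h. Nothing in them says that the 3 libraries of a group came from separate cultures, so the p-values measure only the spread between these libraries, which may be technical.

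A T cell that binds its antigen needs a second, costimulatory signal to respond fully. CD80 and CD86 give it through CD28 and can also bind the inhibitory receptor CTLA-4, ICOSL acts through ICOS, and the TNF family ligands OX40L (Tnfsf4) and 4-1BBL (Tnfsf9) sustain T cells that are already activated. PD-L1 (Cd274) and PD-L2 (Pdcd1lg2) bind PD-1 and dampen the response, while CD40 works in the other direction, receiving CD40 ligand from the T cell and activating the presenting cell.

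Libraries held 5532225 to 66729533 counts in all, so the deepest was 12.1-fold the shallowest. Mrc1, the mannose receptor gene, had 0 to 11 counts in each library. The 8 macrophage markers examined, Lyz2, Csf1r and Adgre1 among them, were counted in all 21 libraries. Of 7 T-cell markers, Cd3e had at most 4 counts, Cd3g 8, Cd3d 10 and Trac 5 in any library, and their counts included 0. The other 3 were counted in all libraries, with up to 82 counts for Cd4, 94 for Cd8a and 303 for Cd28. Of 7 dendritic cell genes, Flt3 lay between 2.04 and 31.8 CPM (counts scaled to a library's effective total). Zbtb46 lay between 17.3 and 50.2 CPM, and Itgax and Dpp4 were also counted in all libraries. Xcr1 reached at most 4.15 CPM and Siglech 1.55 CPM, and Siglech and Cd209a were at 0 in at least 1 library each. The cultures thus carried RNA of some of these dendritic cell markers beside those of macrophages. In bulk RNA, fewer cells of a type and less RNA per cell cannot be told apart. The GC content of a library's reads was uneven within some groups. The tilt, the log2 level of the 1344 most GC-rich genes less that of the 1344 most GC-poor ones relative to the mean of all libraries, was -0.84, -1.62 and 0.64 in the isotype libraries at 4 h. It was -0.74 in FcMR 12 h replicate 1, beside 0.74 and 0.82 in the other libraries of that group, and -1.33 in FcMR 24 h replicate 2, beside -0.38 and 0.41. Isotype 4 h replicate 3, with the tilt of 0.64, and FcMR 12 h replicate 1 also carry title numbers that break the order of their groups. The labels were kept as given, and whether these 2 libraries hold the samples they name was not tested. Without both, 3898 genes in place of 2390 differed between FcMR and isotype at 4 h, and among the 9 genes only Pdcd1lg2 at 24 h changed its call for FcMR against isotype, by passing (adjusted p 0.0202). Transcripts of the 9 genes are 42.7 to 52.5% GC.

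In untreated cells the 9 genes differed widely in level. On the scale of CPM per kilobase of transcript, which allows genes to be compared, Cd83 stood highest at 115 ± 6.36 (SD, n = 3), followed by Cd86 at 76.7 ± 7.99 and Cd274 at 71.9 ± 3.04, whose libraries overlapped each other. Cd40, at 9.40 ± 0.81, and Tnfsf9, at 7.33 ± 1.02, were the 2 lowest. Between them lay Icosl, Pdcd1lg2, Cd80 and Tnfsf4, from 23.4 down to 16.4. The order differed after treatment: Cd274 had the highest mean in all 6 treated groups. In the FcMR group at 4 h it reached 463 ± 14.2 CPM per kilobase, and Cd40, at 401 ± 58.4, overlapped it.

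**Figure D1:**
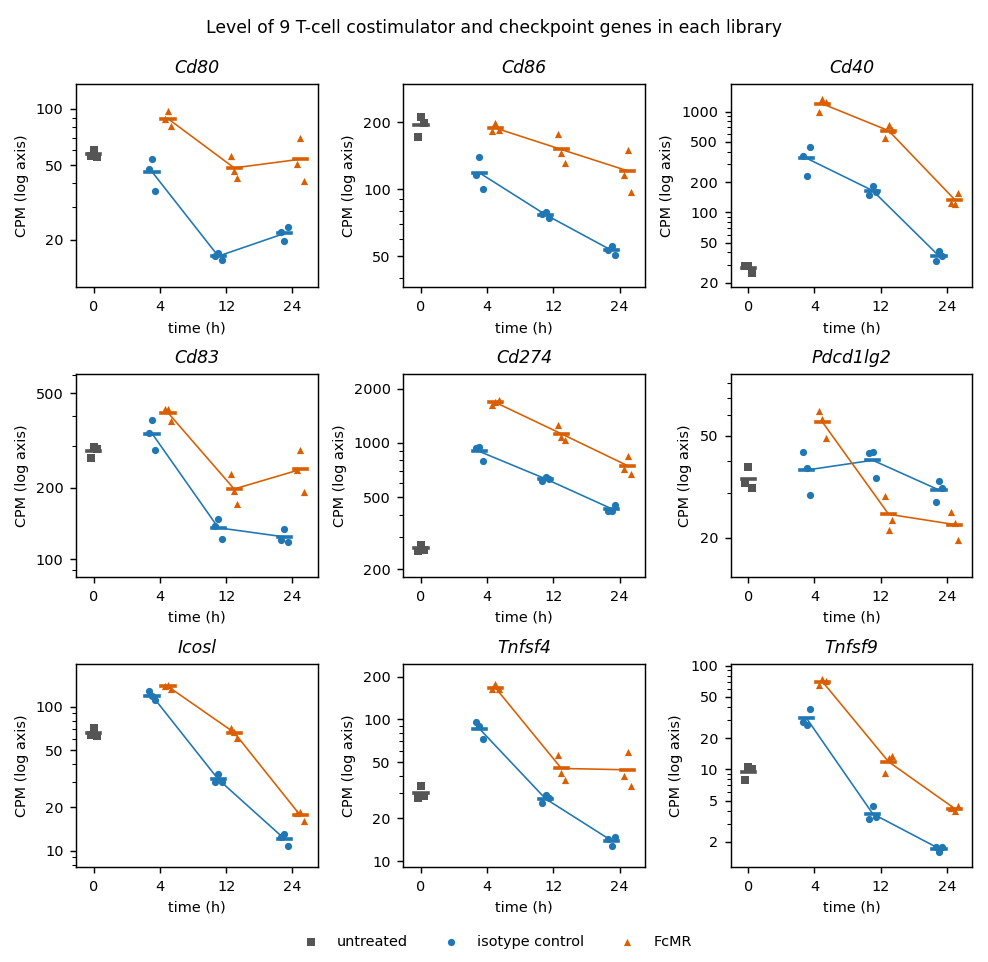
CPM on a log axis for each of the 9 genes in each of the 21 libraries against time in h (time points evenly spaced, each panel with its own axis). Squares are untreated, circles isotype control and triangles FcMR libraries, with bars and lines at the group means of 3; the FcMR libraries lie above the isotype libraries of the same time in 8 panels at 12 and 24 h, and below them in the Pdcd1lg2 panel.

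The main comparison set FcMR against the isotype control of the same time, which holds the time in culture equal. Since the labels do not say what the control protein is, a difference cannot be ascribed to the mannose receptor part of FcMR alone. Most of the 9 genes were higher with FcMR at every time. Differences below are edgeR quasi-likelihood estimates on the log2 scale, FcMR minus isotype, with p-values adjusted by Benjamini-Hochberg over the 13468 genes, and a gene counts as changed at an adjusted p under 0.05. In this comparison rose and fell mean called higher or lower than isotype, whatever the level in untreated cells, which is compared further below. At 4 h 7 of the 9 rose and 0 fell, where 8.62% of all genes tested rose and 9.13% fell. At 12 h 8 rose and 1, Pdcd1lg2, fell (all genes 8.61% and 7.49%). At 24 h 8 rose and 0 fell (all genes 11.4% and 9.44%). The 9 genes were chosen with earlier results of these data known, so the shares stand beside them as a description and not as a test. Over the 3 times the median difference of the 9 was 0.90, 0.97 and 1.19, beside -0.07, -0.02 and 0.01 over all genes tested. All FcMR libraries lay above all isotype libraries for 8 of the genes at each time (all genes 13.5%, 17.5% and 17.8%), and below them for 0 genes at 4 h and for Pdcd1lg2 at 12 and 24 h (all genes 16.2%, 17.9% and 16.6%). Scaling moved the background at 4 h: 1161 genes were higher and 1229 lower with TMM factors, 1412 and 839 with RLE factors. None of the 459 differences of the 9 genes recomputed under other settings changed sign, and none of the calls was lost after a correction for transcript GC content.

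**Figure D2:**
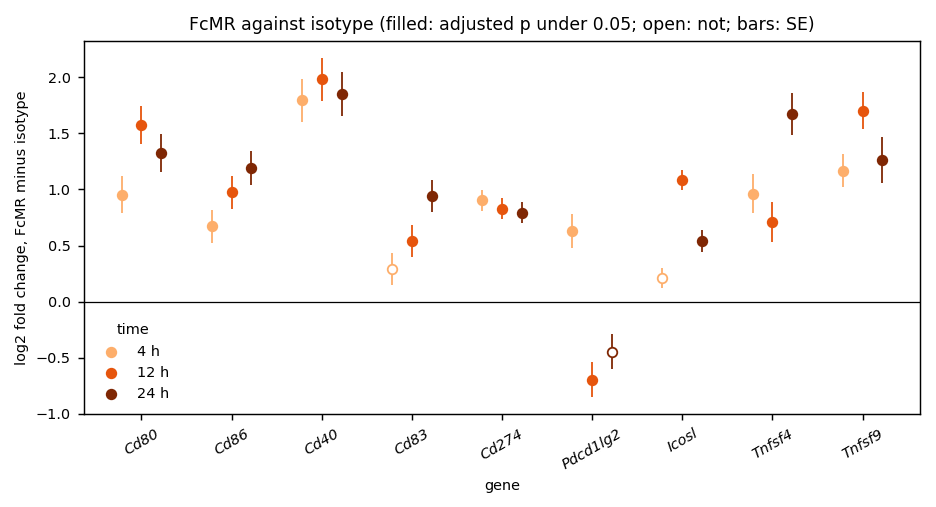
Log2 fold change of FcMR over isotype for each gene at 4, 12 and 24 h, with its standard error as bars; filled points passed an adjusted p of 0.05. Cd40 has the highest points at 4, 12 and 24 h (1.79, 1.98 and 1.85), and Pdcd1lg2 alone lies under 0, at 12 and 24 h.

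CD40 had the widest range of the 9 genes. The untreated libraries held 29.4, 29.5 and 25.3 CPM. With FcMR for 4 h the libraries held 1002, 1340.0 and 1246 CPM, and with isotype 359.5, 231 and 445 CPM. Both arms thus stood far above the untreated cells, and the lowest FcMR library was above the highest isotype library. At 12 h the FcMR libraries held 546, 737 and 660.1 CPM against 149, 184 and 160.0 CPM with isotype. By 24 h they had 123, 122 and 157 CPM against 33.0, 41.1 and 36.9 CPM. Group means were thus lower at each later time in both arms, and the arms never overlapped. FcMR was above isotype 3.46-fold at 4 h (log2 1.79, SE 0.19, adjusted p 5.00e-06), 3.94-fold at 12 h (1.98, SE 0.19, 1.01e-06) and 3.61-fold at 24 h (1.85, SE 0.20, 1.74e-06). A joint test of whether the difference was the same at the 3 times gave an adjusted p of 0.915. Relative to untreated cells Cd40 was 42.6-fold higher with FcMR and 12.3-fold higher with isotype at 4 h, and by 24 h the isotype libraries, at 1.32-fold, did not pass (adjusted p 0.114). They passed on the deposited normalized table (log2 0.59, adjusted p 0.0169), in a fit of only these groups (0.44, 0.00633) and without both libraries out of title order (0.43, 0.0382). Cd40 lies on chr2:165055627-165072948 of GRCm38, plus strand.

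The CD28 ligand genes Cd80 (chr16:38455561-38496335, plus strand) and Cd86 (chr16:36603869-36666081, minus strand) were both higher with FcMR at every time, and in both the isotype arm was under the untreated level at 12 and 24 h. Untreated libraries held 56.2, 60.6 and 55.3 CPM of Cd80. With FcMR the 3 libraries held 88.6, 97.0 and 80.7 CPM at 4 h, 55.8, 46.8 and 42.6 CPM at 12 h, and 50.9, 69.8 and 41.0 CPM at 24 h. With isotype they held 47.5, 54.1 and 36.6 CPM at 4 h, 16.4, 17.02 and 15.6 CPM at 12 h, and 21.9, 19.6 and 23.3 CPM at 24 h. The arms did not overlap at any time. FcMR was 1.93-fold above isotype at 4 h (log2 0.95, SE 0.17, adjusted p 0.00057), 2.97-fold at 12 h (1.57, SE 0.17, 3.04e-06) and 2.51-fold at 24 h (1.33, SE 0.17, 1.44e-05). Against untreated cells the picture was different: Cd80 was 1.55-fold higher with FcMR at 4 h (adjusted p 0.00378) and did not pass at 12 or 24 h (log2 -0.25 and -0.08), while with isotype it was 3.53-fold lower at 12 h and 2.66-fold lower at 24 h.

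Cd86 had 172, 212 and 199 CPM in the untreated libraries. The FcMR libraries held 183, 198 and 185 CPM at 4 h, 176, 146 and 131 CPM at 12 h, and 116, 151 and 97.0 CPM at 24 h. The isotype libraries held 116, 140.0 and 99.9 CPM, then 77.3, 78.9 and 74.4 CPM, then 53.2, 55.4 and 50.7 CPM. Every FcMR library was above every isotype library of its time. The difference was 1.59-fold at 4 h (log2 0.67, SE 0.15, adjusted p 0.00345), 1.96-fold at 12 h (0.97, SE 0.15, 0.000114) and 2.28-fold at 24 h (1.19, SE 0.15, 1.11e-05). With FcMR, Cd86 did not differ from untreated cells by a called amount at 4 h (log2 -0.04, SE 0.14, adjusted p 0.824, with the sign turning under RLE factors). It was called lower after the GC correction (log2 -0.20, adjusted p 0.0265). It was 1.60-fold under that level at 24 h (adjusted p 0.00079). With isotype it was 3.67-fold under it at 24 h.

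Whether Cd80 and Cd86 moved in step was asked from their ratio within a library, which no scaling of the library affects. With FcMR for 12 h the log2 ratio of Cd80 to Cd86 lay between -1.66 and -1.61, and with isotype between -2.25 and -2.20, so FcMR was higher by 0.59. The difference was 0.28 at 4 h, again without overlap, and 0.12 at 24 h with overlap. In an exact two-sided permutation test of 3 against 3 libraries the p was 0.1 at 4 and 12 h, the smallest this design allows, and 0.4 at 24 h, or 0.129, 0.129 and 0.4 after Benjamini-Hochberg adjustment over the 9 ratios tested. None therefore passed 0.05.

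CD83, a surface protein of mature antigen-presenting cells that protects MHC class II and CD86 from degradation, is encoded on chr13:43784775-43803132, plus strand. The Cd83 libraries of the arms overlapped at 4 h, with 431, 428.5 and 383 CPM for FcMR and 341, 387 and 288 CPM for isotype (log2 0.29, SE 0.14, adjusted p 0.173). They were apart later. At 12 h FcMR libraries held 229, 193 and 171 CPM and isotype libraries 138, 148 and 122 CPM, a 1.46-fold difference (log2 0.54, SE 0.14, adjusted p 0.0118). That call was lost without FcMR 12 h replicate 1 (log2 0.42, adjusted p 0.0845) or without isotype 12 h replicate 3 (0.47, 0.0756). At 24 h the values were 237, 289 and 191 CPM against 120.2, 135 and 118 CPM, 1.92-fold (log2 0.94, SE 0.14, adjusted p 8.6e-05). The untreated libraries, 267, 297 and 291 CPM, were above the isotype libraries of 12 and 24 h, which were 2.10-fold and 2.30-fold lower.

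ICOSL, the ligand of ICOS, differed most at 12 h. Icosl (chr10:78069302-78083913, plus strand) held 63.6, 70.7 and 63.1 CPM in untreated cells. At 4 h both arms stood above it, 2.10-fold with FcMR and 1.81-fold with isotype, with 139.6, 142 and 133 CPM for FcMR and 128, 119 and 111 CPM for isotype. They did not overlap, but the difference of 0.21 (SE 0.09) had an adjusted p of 0.106. At 12 h FcMR libraries held 70.6, 67.0 and 61.0 CPM, near the untreated level (log2 0.01), while isotype libraries held 29.9, 33.9 and 30.2 CPM. FcMR was 2.12-fold higher (log2 1.08, SE 0.09, adjusted p 1.33e-07). By 24 h both arms were low, at 18.2, 18.4 and 16.1 CPM with FcMR and 12.4, 13.1 and 10.8 CPM with isotype, and the difference was 1.46-fold (0.54, SE 0.10, 0.00046). Compared with untreated cells Icosl was then 3.73-fold lower with FcMR and 5.44-fold lower with isotype.

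OX40L, which engages OX40 on activated T cells, is encoded by Tnfsf4 on chr1:161395409-161418410, plus strand. It had 27.8, 33.9 and 28.9 CPM in untreated libraries and 164, 176 and 162 CPM after 4 h of FcMR, against 95.1, 90.2 and 72.8 CPM with isotype. FcMR was 1.95-fold above isotype (log2 0.96, SE 0.17, adjusted p 0.000769). At 12 h the values were 56.1, 41.6 and 37.4 CPM against 25.6, 29.3 and 27.8 CPM, a 1.64-fold difference (0.71, SE 0.18, 0.00831) that was lost without FcMR 12 h replicate 1, the highest library (0.52, adjusted p 0.0649). At 24 h the FcMR libraries spread from 33.8 to 58.8 CPM, with 39.7 CPM between, while the isotype libraries had gone down to 14.2, 12.8 and 14.8 CPM. This was its largest difference, 3.19-fold (1.67, SE 0.19, 2.92e-06). The FcMR libraries of 12 and 24 h overlapped, and the isotype libraries of these times did not.

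4-1BBL, the ligand of the receptor 4-1BB, is encoded by Tnfsf9 on chr17:57105325-57107757, plus strand, and had the lowest level per kilobase in untreated cells and at 12 and 24 h in both arms. The untreated libraries held 7.97, 10.4 and 9.97 CPM. At 4 h FcMR libraries held 64.4, 74.4 and 71.2 CPM and isotype libraries 28.9, 26.5 and 37.8 CPM. At 12 h they held 9.17, 12.8 and 13.5 CPM against 3.31, 4.40 and 3.48 CPM. At 24 h they held 4.21, 3.93 and 4.39 CPM against 1.77, 1.61 and 1.802 CPM, which rests on 14 to 18 counts in an isotype library. The peak at 4 h was thus passed quickly in both arms, and the FcMR libraries stayed above the isotype libraries throughout. The differences were 2.25-fold (log2 1.17, SE 0.15, adjusted p 3.00e-05), 3.25-fold (1.70, SE 0.17, 1.01e-06) and 2.40-fold (1.26, SE 0.21, 0.0002). The lincRNA Gm11110 overlaps Tnfsf9 on the other strand and had 8 to 81 counts in a library, and its part in these values was not tested.

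The PD-1 ligand genes lie next to each other on the plus strand of chromosome 19, Cd274 at chr19:29367455-29388095 and Pdcd1lg2 at chr19:29410919-29471161, with 22823 bp between the end of the first and the start of the second. Their starts are 43464 bp apart. Because the neighbours moved in opposite directions at 12 h, the 250 bases before each RefSeq start (GRCm38.p6, 5′ to 3′ on the plus strand) are shown, Cd274 at chr19:29367188-29367437 and Pdcd1lg2 at chr19:29410669-29410918, with a match to a searched motif in capitals:
Cd274: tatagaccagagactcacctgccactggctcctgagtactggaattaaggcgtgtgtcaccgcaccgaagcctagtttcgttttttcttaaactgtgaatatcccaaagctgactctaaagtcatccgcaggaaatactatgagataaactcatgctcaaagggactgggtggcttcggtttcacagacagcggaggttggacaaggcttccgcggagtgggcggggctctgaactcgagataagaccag
Pdcd1lg2: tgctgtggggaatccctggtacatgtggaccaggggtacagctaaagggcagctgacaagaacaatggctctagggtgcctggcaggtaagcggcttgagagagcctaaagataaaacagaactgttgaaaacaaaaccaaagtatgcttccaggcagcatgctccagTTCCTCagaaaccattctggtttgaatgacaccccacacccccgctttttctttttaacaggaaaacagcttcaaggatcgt

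The motifs searched, on both strands, were GGGA and TTCC with 2 free bases between them (NF-kB type, in 1.208% of 32851 RefSeq windows of this length), TTCNNNGAA (GAS, 7.02%), GAAA and GAAA with 2 free bases between them (ISRE, 2.977%), TGANTCA (AP-1, 6.749%) and GAGGAA (ETS, 23.253%). In the Pdcd1lg2 window GAGGAA matched once, on the minus strand at -82 to -77 from the start, and the Cd274 window held no match. RefSeq windows were at hand for 4 of the 9 genes. Of the other 2, Cd80 had a match to TGANTCA at -42 to -36 from its RefSeq start and Icosl had none. The Cd80 window, chr16:38458683-38458932, lies inside the gene span given above, not before it. The Icosl window, chr10:78069118-78069367, has 66 of its 250 bases in GENCODE exons. A match in such a short window is a description of its letters, and a missing match says nothing about the factor.

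Cd274 rose in both arms and stayed up. Its untreated libraries held 253, 273 and 255 CPM. At 4 h the FcMR libraries held 1622, 1690.3 and 1722 CPM and the isotype libraries 942, 953 and 798 CPM. At 12 h they held 1261, 1076 and 1033 CPM against 617, 647 and 634 CPM, and at 24 h 721, 848 and 676 CPM against 421.5, 422 and 452 CPM. Every treated library was above every untreated library, and every FcMR library above every isotype library of its time. FcMR was above isotype 1.87-fold at 4 h (log2 0.90, SE 0.09, adjusted p 3.79e-06), 1.78-fold at 12 h (0.83, SE 0.09, 5.71e-06) and 1.73-fold at 24 h (0.79, SE 0.09, 6.18e-06). With the isotype control alone Cd274 was 3.45-fold, 2.43-fold and 1.66-fold above untreated cells, and with FcMR 6.45-fold, 4.32-fold and 2.87-fold. These 2 sets of comparisons share the untreated libraries.

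Pdcd1lg2 did otherwise. It held 32.7, 37.6 and 31.1 CPM in untreated cells, and at 4 h 62.3, 58.3 and 49.0 CPM with FcMR against 43.4, 37.3 and 29.4 CPM with isotype. FcMR was then 1.55-fold higher (log2 0.63, SE 0.16, adjusted p 0.00847), a call that was lost without FcMR 4 h replicate 1 (0.56, adjusted p 0.0523) and in a fit of only these 2 groups (0.62, 0.0813). At 12 h the order was turned around, with 29.1, 21.5 and 23.4 CPM for FcMR and 43.0, 43.3 and 34.1 CPM for isotype, so FcMR was 1.62-fold lower (log2 -0.69, SE 0.15, adjusted p 0.00378). At 24 h all FcMR libraries (25.1, 22.7 and 19.6 CPM) were again below all isotype libraries (27.5, 33.3 and 31.3 CPM), with a log2 difference of -0.45 (SE 0.16) that narrowly missed the threshold (adjusted p 0.0532). The isotype arm never departed from untreated cells by a called amount, with log2 differences of 0.11, 0.24 and -0.14. With FcMR, Pdcd1lg2 was 1.67-fold above untreated cells at 4 h (adjusted p 0.000635) and 1.37-fold and 1.503-fold below them at 12 and 24 h (0.0211 and 0.00435). The antisense gene A930007I19Rik overlaps Pdcd1lg2 and had 33 to 673 counts in a library. Use of strand in the counting is not given in the sources used here, and without it the reads of the pair cannot be told apart. Cd274 overlaps the antisense gene AC119228.1, which is not analysed here.

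Within a library, the log2 ratio of Cd274 to Pdcd1lg2 lay between 2.85 and 3.03 in untreated cells. It lay between 4.70 and 5.13 with FcMR at 4 h, where isotype libraries lay between 4.44 and 4.75. At 12 h FcMR libraries had 5.43 to 5.64 and isotype libraries 3.84 to 4.21, and at 24 h 4.84 to 5.21 and 3.66 to 3.93. The gap between the arms was 0.27 at 4 h, with overlap, and 1.52 and 1.24 later, without overlap. The exact two-sided permutation p was 0.2 at 4 h and 0.1, the smallest possible, at 12 and 24 h (adjusted 0.225, 0.129 and 0.129). Setting a costimulator against a checkpoint ligand, the ratio of Cd86 to Cd274 was lower with FcMR by 0.23 at 4 h (log2 -0.23) and higher by 0.14 at 12 h and 0.38 at 24 h, each without overlap and each with an exact permutation p of 0.1 (adjusted 0.129). In both arms it was below -2.49 in every library, while in untreated libraries it lay between -0.55 and -0.36.

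**Figure D3:**
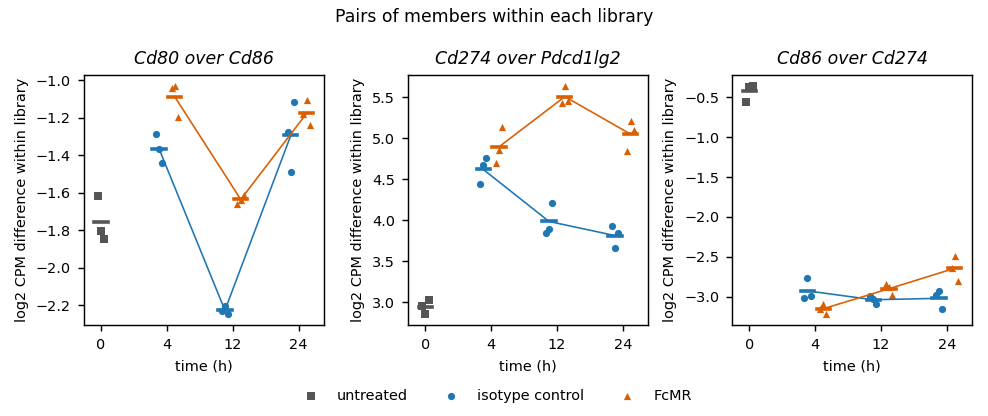
Log2 ratio of CPM within each library for 3 pairs of genes against time in h (time points evenly spaced); squares are untreated, circles isotype and triangles FcMR libraries, with bars at the group means. The Cd274 over Pdcd1lg2 ratio of the arms parts at 12 and 24 h (differences 1.52 and 1.24), and the Cd86 over Cd274 ratio is highest in the untreated libraries.

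The joint test of whether the FcMR difference was the same at 4, 12 and 24 h called 3 of the 9 genes, where it called 11% of all genes. These were Icosl (adjusted p 0.000537), Pdcd1lg2 (0.00126) and Tnfsf4 (0.0419), and the Tnfsf4 call was lost in 15 of 18 fits that left out 1 library. Cd83, whose difference was 0.29, 0.54 and 0.94 over time, had an adjusted p of 0.0932, and Cd80, Cd86 and Tnfsf9 had 0.202, 0.237 and 0.244. Cd83 passed in 3 of 11 alternatives and in 2 of 18 fits that left out 1 library (0.0171 to 0.0345). Cd86 (0.0281) and Tnfsf9 (0.0137) passed after the GC correction. Cd80 passed with the replicate block and GC correction together (0.0265). For Cd274 the adjusted p was 0.876.

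The isotype control, set against untreated cells, covers the effect of the control protein and that of time in culture, which cannot be told apart here. Markers of other cell types differed from untreated cells too, as given below. At 4 h 5 of the 9 genes rose and 1, Cd86, fell (all genes 20.4% and 15.2%). The 5 were Cd40, Cd274, Tnfsf9, Icosl and Tnfsf4. At 12 h 2 were still higher, Cd40 and Cd274, and 5 were lower (all genes 22% and 19.6%). After the GC correction Cd80 was also lower at 4 h (log2 -0.56, adjusted p 5.5e-05, beside -0.32 and 0.145 without it). At 24 h only Cd274 among the 9 was called higher, with Cd40 passing in the 3 alternatives given above, and 6 were lower (21.3% and 20.9%), namely Tnfsf9 (log2 -2.46), Icosl (-2.44), Cd86 (-1.87), Cd80 (-1.41), Cd83 (-1.20) and Tnfsf4 (-1.12). Against the same untreated libraries, 8 of the genes were higher with FcMR at 4 h and 0 lower (22.3% and 25.9%), and Cd86 was the one that did not pass. At 12 h 3 were higher, Cd40, Cd274 and Tnfsf4, and 3 lower, Cd83, Pdcd1lg2 and Cd86 (24.7% and 23.4%). At 24 h the same 3 genes were higher and 4 lower, Icosl, Tnfsf9, Cd86 and Pdcd1lg2 (26.0% and 25.4%). Of the 12 h calls, Cd86 was lost without FcMR replicate 2 or 3 or untreated replicate 2 or 3 (adjusted p 0.151, 0.2395, 0.156 and 0.104), and Pdcd1lg2 without FcMR replicate 2 or 3 or untreated replicate 2 (0.127, 0.0940 and 0.0999). The Cd86 call was also lost in 4 alternatives, down to a log2 difference of -0.10 on the deposited normalized table (adjusted p 0.590), and the Pdcd1lg2 call in 2, without the expression filter (0.0547) and in a fit of only the groups compared (0.0600). Cd80 passed at 12 h after the GC correction (log2 -0.29, adjusted p 0.00894). Tnfsf4 was lost at 12 h without FcMR replicate 1 (0.0706) and at 24 h without FcMR replicate 2 or untreated replicate 1 (0.119 and 0.0541). Tnfsf9 at 12 h passed without FcMR replicate 1 (0.0103) and after the GC correction (0.0176). The Tnfsf4 libraries of FcMR at 24 h reached down into the untreated range, with 33.8 against 33.9 CPM.

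Markers of other cell types moved with some groups. For FcMR against isotype at 4, 12 and 24 h, 8.62%, 8.61% and 11.4% of all genes tested rose. The shares that fell were 9.13%, 7.49% and 9.44%. A count of 1 gene in such short lists is not read as a shift of a cell type. The summed level of 10 neutrophil genes was 597 to 747 CPM in the FcMR libraries at 24 h and 1408 to 1494 CPM in the isotype libraries, and 3 of the 10 genes fell and 1 rose. At 4 h the sums overlapped (1245 to 1443 and 1256 to 1781 CPM), as they did at 12 h (466 to 724 and 637 to 749 CPM). The sum rests on few genes. Mmp8 reached 1310 CPM in a library, S100a9 754 CPM and S100a8 483 CPM, while Ly6g, Retnlg, Mpo and Elane never passed 8.83 CPM. Retnlg, Mpo and Elane were at 0 in at least 1 library. Of the 7 T-cell markers the summed level was 2.61 to 3.17 CPM with FcMR and 7.98 to 10.9 CPM with isotype at 24 h, and it was lower with FcMR at 4 h (7.45 to 8.29 and 9.05 to 12.8 CPM) and at 12 h (2.14 to 3.38 and 4.55 to 8.64 CPM) too. Cd3e, Cd3g, Cd3d and Trac were at 0 in at least 1 library each. Most of the gap at 24 h came from Cd28 alone, at 1.43 CPM with FcMR and 7.43 CPM with isotype. Of the 3 T-cell markers tested, only Cd28 was called lower, at each time, and 0 were called higher. Of 7 dendritic cell genes the sum at 4 h was higher with FcMR, at 1257 to 1312 CPM against 1121 to 1241 CPM, although 0 of the genes passed. It was lower with FcMR at 12 h (1117 to 1173 and 1236 to 1258 CPM) and at 24 h (935 to 964 and 1037 to 1156 CPM), with 1 gene up and 1 down at each of these times. Itgax, at 853 to 1233 CPM across libraries, made up most of this sum. Lyz2, at 16643 to 30533 CPM across libraries, made up most of the sum of 8 macrophage genes. At 24 h that sum was 25903 to 27942 CPM with FcMR and 31179 to 35367 CPM with isotype, with 2 genes up and 4 down. Of 6 eosinophil, basophil and mast cell genes it was 66.4 to 99.5 CPM and 82.8 to 118 CPM, with 0 up and 1 down. B-cell genes were low and overlapped (3.50 to 5.24 and 3.99 to 4.93 CPM for 5 genes). Of 5 endothelial and fibroblast genes the sum was higher with FcMR at 4 h (10.8 to 14.6 and 8.62 to 10.5 CPM) and 12 h (8.03 to 14.1 and 5.57 to 6.51 CPM) and overlapped at 24 h, with 1 gene up at 12 h. Against untreated cells, 9 neutrophil genes were lower with isotype at 12 h and 9 at 24 h, with 0 and 1 higher. With FcMR 10 and 9 were lower and 0 higher. All 6 eosinophil, basophil and mast cell genes were lower in both arms at both times. Their sum was 634 to 831 CPM in untreated libraries. Over all genes tested 19.6% to 25.4% were lower in these comparisons. The part of these shifts in the results was not tested.

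The receptors that T cells use for these ligands were mostly low. Of 7 receptor genes 5 were tested. Cd28, the receptor of CD80 and CD86, was the gene of this list that fell at each time, by 0.80 at 4 h, by 1.85 at 12 h and by 2.35 at 24 h on the log2 scale, from 7.43 ± 1.85 CPM with isotype to 1.43 ± 0.20 CPM with FcMR at the last (SD, n = 3; adjusted p 0.0342, 0.000122 and 3.92e-06). Cd28 is also 1 of the 7 T-cell markers summed above. Ctla4 had at most 4 counts in a library. Tnfrsf9, which encodes 4-1BB, was by contrast well expressed, at 54.1 to 216 CPM across libraries, and at 24 h it rose from 60.8 ± 6.06 to 91.5 ± 6.26 CPM (log2 0.59, SE 0.09, adjusted p 0.000141). At 4 h 0 rose and 1 fell, at 12 h 0 rose and 2 fell (Cd28 and Tnfrsf4), and at 24 h 1 rose and 1 fell. Their median difference was 0.23, -0.05 and -0.55. Over all genes tested 8.62%, 8.61% and 11.4% rose at the 3 times and 9.13%, 7.49% and 9.44% fell, with medians of -0.07, -0.02 and 0.01, and the counts of the lists that follow stand beside these same shares. The lists too were chosen with earlier results of these data known.

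Among 22 genes of other T-cell ligands and co-receptors, 19 were tested. With FcMR 9 rose and 2 fell at 4 h, 8 rose and 3 fell at 12 h, and 7 rose and 5 fell at 24 h, and their median difference was 0.64, 0.49 and 0.38. The highest called gene at 4 h was Tnfsf15, the TNF family ligand TL1A, at 1109 ± 68.7 CPM with FcMR and 196 ± 25.8 CPM with isotype (log2 2.50, SE 0.18, adjusted p 3.76e-08). At 12 h it was Slamf1, a self-binding receptor of the SLAM family (log2 2.31, SE 0.25, adjusted p 2.75e-06), from 3.57 to 16.7 CPM, and at 24 h Btla, an inhibitory receptor that binds HVEM (2.70, SE 0.32, 5.26e-06), from 1.54 to 10.02 CPM. Cd70 had a higher estimate at 24 h (3.14, SE 1.84) that did not pass (adjusted p 0.273). The lowest called genes were the inhibitory molecules TIM-3 (Havcr2, -0.85) at 4 h and VISTA (Vsir, -1.09) at 12 h, and the CD30 ligand gene Tnfsf8 (-1.37) at 24 h. Vsir held 52.8 ± 11.3 CPM with FcMR and 112 ± 7.71 CPM with isotype at 12 h.

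**Figure D4:**
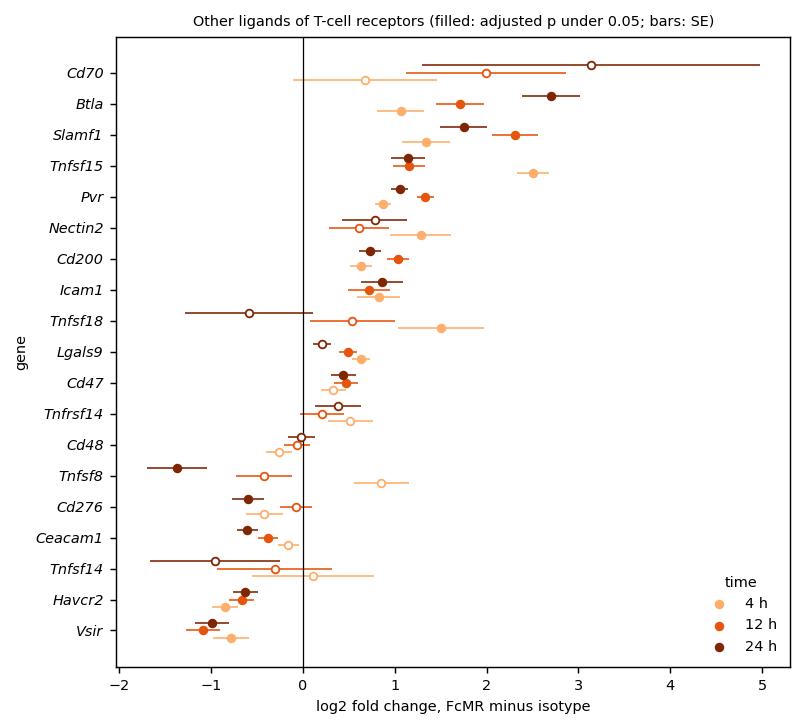
Log2 fold change of FcMR over isotype at 4, 12 and 24 h for the 19 tested genes of other T-cell ligands and co-receptors, ordered by their mean, with standard errors as bars; filled points passed an adjusted p of 0.05. Btla, Slamf1 and Tnfsf15 lie on the high side at all 3 times, Vsir and Havcr2 on the low side, and Cd70, with the widest bars, passed at none.

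Genes that act downstream of CD40, or as transcription factors of antigen-presenting cells, rose or did not pass. Of 24 adaptor and transcription factor genes, all tested, 12 rose at 4 h, 8 at 12 h and 9 at 24 h, and 0 fell at any time (medians 0.54, 0.25 and 0.37). Irf7, a transcription factor of the interferon response, had the highest called difference at 4 h, with 368 ± 20.8 CPM for FcMR and 133 ± 62.0 CPM for isotype (log2 1.47, SE 0.27, adjusted p 0.000911). At 12 h the highest called was Traf1, a TNF receptor adaptor (0.78, SE 0.16, 0.00241), with the NF-kB subunit gene Nfkb2 at 0.79 not passing (SE 0.33, adjusted p 0.122), and at 24 h Jak2, a kinase of cytokine receptors (1.19, SE 0.15, 8.72e-06). Of 13 dendritic cell maturation genes, 6 rose at 4 h, 5 at 12 h and 7 at 24 h, and 0 fell (medians 0.55, 0.51 and 0.67). Il15, a cytokine that sustains memory T cells and NK cells, led at 4 h with 109 ± 14.4 against 39.2 ± 5.88 CPM (1.47, SE 0.16, 6.71e-06). Ccl22, a chemokine for CCR4-bearing T cells, led later, with 6365 ± 626 against 2749 ± 312 CPM at 12 h (1.21, SE 0.11, 3.10e-07) and 2399 ± 56.1 against 646 ± 45.9 CPM at 24 h (1.89, SE 0.11, 1.09e-09).

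Profiles over the 7 group means were compared by the root mean square distance of mean-centred log2 CPM, as a description without a test. Among the 9 genes the closest pairs were Cd80 and Cd83 (0.35), Cd83 and Cd86 (0.36) and Cd80 and Cd86 (0.37). The farthest was Cd40 from Pdcd1lg2 (1.76), and the 2 PD-1 ligand genes were 0.81 apart. Of all genes tested, those nearest to Cd40 were Ifit1bl1 (0.34), Cxcl9 (0.37) and Calhm6 (0.38), and those nearest to Tnfsf9 were Cxcl11 (0.34), Nfkbiz (0.37) and Hcar2 (0.40). Among those nearest to Cd274 were Gm10825 (0.14) and Mitd1 (0.15), and nearest to Pdcd1lg2 were Gm21370 (0.11), Chrnb2 (0.15) and Eno3 (0.17). For Icosl these were Cpm (0.24), Gm13502 (0.34) and Ralgds (0.34), and for Tnfsf4 Nxpe3 (0.19), Gm37560 (0.27) and Gbp10 (0.31). Arg2 (0.26), Pde4b (0.26) and AI504432 (0.27) were nearest to Cd80, Kcna3 (0.19), Arhgap26 (0.20) and Rnf144a (0.20) to Cd86, and Pnrc1 (0.16), Skil (0.16) and Rbbp8 (0.20) to Cd83. The profile of Cd40 spanned 5.40 on the log2 scale from its lowest to its highest group mean and that of Pdcd1lg2 1.33.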

How the data were processed

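RNA was measured in 21 libraries made with a TruSeq RNA v2 kit, per the labels' protocols, and sequenced as 75 bp single-end reads. Per the submitters' processing notes, CASAVA 1.8.2, kallisto 0.44.0 and DESeq2 were used, with builds mm10 and GRCm38; the role and order of these steps are not given in the sources used here. The deposited raw table holds estimated counts per gene, already whole numbers as deposited, so that rounding changed none. The deposited normalized table was used as a signal for an alternative only; it is not the raw table times 1 factor per library, since within a library its ratio to the raw counts differs between genes, and how the authors made it is not given in the sources used here. Every gene in the raw table has a summed count of at least 10.

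Symbols, positions and transcript lengths came from GENCODE M21 (GRCm38), with 23187 genes matched to a symbol, 21231 of them with the same version. Counts were tested with edgeR 4.0.16 in R 4.3.3, by the quasi-likelihood test with TMM factors, filterByExpr at a minimum of 10 counts, 1 coefficient per group and all 21 libraries in 1 fit, and Benjamini-Hochberg adjustment over the 13468 genes tested. CPM values used the same factors. Ratios used a prior count of 2 and an exact permutation test. The comparison code was tested on simulated data. Alternatives were RLE factors, other filters, DESeq2 1.42.0, limma 3.58.1 (voom, and on log2 of the normalized values), fits of only the groups compared, a replicate block, a correction for transcript GC content (13440 genes), and leaving out each library in turn. Library totals limit the precision of low genes most, and counts of PCR reads are not independent molecules.

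Named genes are the 9 members and Mrc1. From each gene list the called genes at both ends of the fold change are named for each time, if their average log2 CPM is 1 or more, and the 3 nearest profiles of each member, of which 1 is not reported here. The named T-cell receptors Ctla4 and Tnfrsf4, the uncalled Nfkb2 and Cd70, and single markers fall outside that rule and were chosen after their values were seen. The members and lists were chosen with earlier results of these data known. Promoter windows are from RefSeq (GRCm38.p6).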

Additional observations from a re-analysis of the deposited data

Results flagged for a closer look

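The difference between FcMR and isotype changed with time for 3 of the 9 genes in edgeR's joint test over 4, 12 and 24 h. For Icosl (adjusted p 0.000537) it was 0.21, 1.08 and 0.54 on the log2 scale. For Pdcd1lg2 (0.00126) it was 0.63, -0.69 and -0.45, and the FcMR libraries lay above all isotype libraries at 4 h and below them at 12 and 24 h. For Tnfsf4 (0.0419) it was 0.96, 0.71 and 1.67, and this call was the least stable of the set, since it was lost in 4 of the 11 alternatives and in 15 of the 18 fits that left out 1 library.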

How the results depend on the processing

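Of 459 recomputed differences between FcMR and isotype for the 9 genes, 447 kept their direction and side of the threshold, 5 lost the call, 7 gained it and 0 reversed. Leaving out 1 library gave 6 to 7 called genes for the 4 h comparison, 7 to 9 for 12 h, 8 for 24 h and 2 to 4 in the joint test over time. The joint test called 5 genes after the GC correction and 7 with the replicate block and GC correction together, against 3; the cause was not tested. The Tnfsf4 joint call was lost without each single library except FcMR 12 h replicate 1, isotype 4 h replicate 3 and FcMR 24 h replicate 3 (adjusted p 0.0518 to 0.130), and in 4 alternatives (0.0685 to 0.0984). The Pdcd1lg2 difference at 24 h passed after the GC correction (adjusted p 0.0407) and without FcMR 12 h replicate 1 and isotype 4 h replicate 3 (0.0202). Icosl at 4 h passed in DESeq2 (0.0365) and without the expression filter (0.0497). The log2 ratio of Cd80 to Cd86 at 24 h, 0.12, turned to -0.017 on the deposited normalized table, with neither past the threshold; the cause was not tested.

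Replicate numbers showed no clear pairing of the samples. Deviations of same-numbered libraries had a mean correlation over the 3 numbers of -0.07, 0.11 and 0.01 at 4, 12 and 24 h. Of the 6 libraries compared, 1, 3 and 3 correlated best with their own number. With 3 libraries a group and uneven GC content, this check cannot exclude a pairing. With the replicate block 8, 9 and 9 of the genes were called at 4, 12 and 24 h and 4 in the joint test, with Icosl at 4 h (adjusted p 0.0394), Pdcd1lg2 at 24 h (0.016) and Cd83 in the joint test (0.0271) added.

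Over all genes, the count called at 4 h ran from 868 (only the groups compared) to 4041 (block with GC correction) around 2390, at 12 h from 1663 to 3642 around 2169, at 24 h from 1995 to 4382 around 2813, and in the joint test from 925 to 3463 around 1484. The GC correction alone gave 3910, 3455, 4264 and 3203, and leaving out FcMR 12 h replicate 1 and isotype 4 h replicate 3, the libraries out of title order, gave 3898 for the 4 h comparison and 2616 in the joint test. For isotype against untreated at 4 h, a fit of only these groups called 2881 genes, against 4792. Without isotype 4 h replicate 3 the joint test called 2294 genes, and without FcMR 4 h replicate 2 it called 973 and the 4 h comparison 1589. Without the expression filter the median of all genes at 4 h moved by 0.117 (log2). With 14 to 18 counts in an isotype library at 24 h, Tnfsf9 is the gene whose fold is most limited by depth.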
